A study of Mus musculus with 12 samples.

Results

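The glutathione S-transferase (GST) genes described here are 10 members fixed by name, out of 43278 gene symbols in the deposited table. They are Gsta3 and Gsta4 of the alpha class, Gstm1 and Gstm2 of the mu class, Gstp1 of the pi class, Gsto1 of the omega class, Gstt1 of the theta class, and the membrane-bound Mgst1, Mgst2 and Mgst3. All 10 were found in the table.

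The cells were peritoneal macrophages (PMφs) of wild-type C57BL/6J mice, male and female littermates aged 8 to 12 weeks, drawn into the peritoneal cavity with thioglycolate and harvested by lavage 4 days later. Libraries of poly(A) RNA came from 12 cultures, with 3 in each of 4 groups. Control PMφs received neither agent, oxLDL PMφs were cultured for 24 h with 100 µg/ml human oxidized low-density lipoprotein, LPS PMφs received 10 ng/ml lipopolysaccharide, and oxLDL+LPS PMφs received the same oxLDL followed by the same LPS. The duration of LPS for these libraries is not given in the sources used here. According to the methods, cells of several mice were mixed and the mix was split over the groups, so a library holds the mean of a pool, cultured outside the animal. The design asks how oxLDL loading changes the transcriptome before and after LPS.

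GSTs couple glutathione, the main small thiol of the cell, to electrophilic molecules, which makes them soluble and ready for export. The cytosolic classes differ in their preferred substrates, and the microsomal members sit in membranes, where some of them also reduce lipid hydroperoxides. Oxidized lipoproteins carry such hydroperoxides and reactive aldehydes into macrophages, and many GST genes are known targets of NRF2, a transcription factor that binds antioxidant response elements when electrophiles modify its inhibitor KEAP1.

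The members differ in whether an antioxidant response element-like run lies near their start. Stretches upstream of 3 members are shown with the matching letters in capitals. These members were picked, among those higher with oxLDL, because they hold a match, so the choice itself pairs the letters with higher values. Gstm1, also higher with oxLDL, held no match in either of its windows and is not shown. The stretches are the 250 bases before the RefSeq start, read 5′ to 3′ along the gene on GRCm38.p6. Gsta3 lies at chr1:21240335-21240584 on the plus strand, Gstp1 at chr19:4037913-4038162 on the minus strand, and Mgst1, at the upstream one of its RefSeq starts, at chr6:138140277-138140526 on the plus strand.
Gsta3: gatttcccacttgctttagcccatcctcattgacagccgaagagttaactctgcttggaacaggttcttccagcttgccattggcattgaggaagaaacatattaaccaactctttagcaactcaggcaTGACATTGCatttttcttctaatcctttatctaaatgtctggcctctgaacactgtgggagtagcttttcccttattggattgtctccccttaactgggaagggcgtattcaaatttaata
Gstp1: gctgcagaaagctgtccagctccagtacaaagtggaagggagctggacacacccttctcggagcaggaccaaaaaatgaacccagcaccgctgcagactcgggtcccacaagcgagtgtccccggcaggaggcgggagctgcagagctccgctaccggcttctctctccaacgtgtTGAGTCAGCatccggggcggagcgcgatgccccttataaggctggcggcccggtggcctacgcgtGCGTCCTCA
Mgst1: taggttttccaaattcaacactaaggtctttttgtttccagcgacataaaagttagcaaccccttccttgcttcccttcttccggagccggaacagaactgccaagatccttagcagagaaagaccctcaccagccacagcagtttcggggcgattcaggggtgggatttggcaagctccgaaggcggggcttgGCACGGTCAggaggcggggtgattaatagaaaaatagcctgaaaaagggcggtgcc

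The letters searched on both strands were TGACNNNGC and TGAGNNNGC, which do not overlap each other in these windows. Gsta3 held TGACATTGC from 121 to 113 bases upstream of its start. Gstp1 held TGAGTCAGC from 74 to 66 bases upstream and, reading as the reverse complement, GCGTCCTCA from 9 to 1 bases upstream. Mgst1 held GCACGGTCA, the reverse complement of the TGAC form, from 56 to 48 bases upstream. Of the members not shown, Gstt1 held TGAGAGAGC from 89 to 81 bases upstream. The windows of Gstm1, Gstm2, Gsto1, Mgst2 and Mgst3 held neither form. RefSeq windows of 300 bases, 250 before and 50 after the start, were matched for 9 of the 10 members, with 11 windows in all, and Gsta4 was not among them. Some match lay in 4 of the 11 windows, or 36.4%, and in 27.8% of all 32841 windows. A match describes letters only. Positions are counted from the RefSeq start. Among members with a match, the GENCODE vM21 genes of Gstp1, Mgst1 and Gstt1 begin farther upstream, at 4037985, 138140316 and 75798584. Part of the Gstp1 and Mgst1 stretches, with the Mgst1 match, and the whole Gstt1 window thus lie inside the annotated gene.

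Values are normalized counts, and the scaling step is not described in the sources used here. By their spacing, the values are exonic read counts scaled with a single factor for each library and rounded. They summed to between 17152972 and 17709731 in control, 17440329 and 17444102 in oxLDL, 22590678 and 26384551 in LPS and 22071853 and 23346854 in oxLDL+LPS libraries. The spacing of the values implied 16.7 to 26.2 M reads per library, and a read was worth 0.7635 to 1.413 units, so a value near 10 rests on about that many reads. Macrophage markers were high in every library, with summed values of 231967 to 347950 over 8 genes. Markers of mesothelial cells and fibroblasts, with 10 of 10 genes above the filter, summed to 5455 to 32202 and moved with the replicate number, being highest in number 1 and lowest in number 3 of every group. Markers of B cells, T and NK cells, neutrophils and mast cells summed to at most 258 in any library. Eosinophil markers, with 1 of 4 genes above the filter, summed to 319 to 385 in control and 182 to 305 in oxLDL libraries. Their sums were 104 to 125 in LPS and 58 to 107 in oxLDL+LPS libraries.

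Libraries were numbered 1 to 3 in each group. Libraries with the same number deviated together from their group means, so a fit with the number as a block (the blocked fit) is given beside the fit without it. Number 1 stood apart across LPS states. Xist, transcribed from the inactive X chromosome of female cells, was 1 and 2 in the control and oxLDL libraries of number 1 but 6331 and 3812 in its LPS and oxLDL+LPS libraries. Ddx3y, a Y-linked gene, was 1156 and 1132 against 459 and 439 in the same libraries. By these genes, number 1 did not hold the same mix of male and female cells with and without LPS. Calls of members in the LPS comparisons are therefore also given without it. The LPS results of the other gene lists include number 1.

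Per kb of exon, which allows levels of different genes to be compared, Gstm1 was the highest member in all 4 groups. In control PMφs its level was 4790 ± 111 normalized counts per kb (SD, n = 3), followed by Mgst1 at 1202 ± 163 and Gsto1 at 511 ± 29.7. No library of these 3 overlapped with the next in this order. Gstm2, Gstp1 and Mgst3 came next, at 286.7, 267.4 and 246.4 per kb, and their control libraries overlapped, so their order is not resolved. Gstt1, Mgst2, Gsta4 and Gsta3 formed a low set with control means of 8.51, 5.49, 4.48 and 2.38 per kb and overlapping libraries. The order of the top 3 was the same in the other groups. By group mean, Gsta3 moved from the tenth to the seventh place with oxLDL, in cells with and without LPS. In number 2 it was at 3.45 per kb in oxLDL and 1.15 in oxLDL+LPS libraries, below Mgst2 at 3.51 and 4.05.

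**Figure D1:**
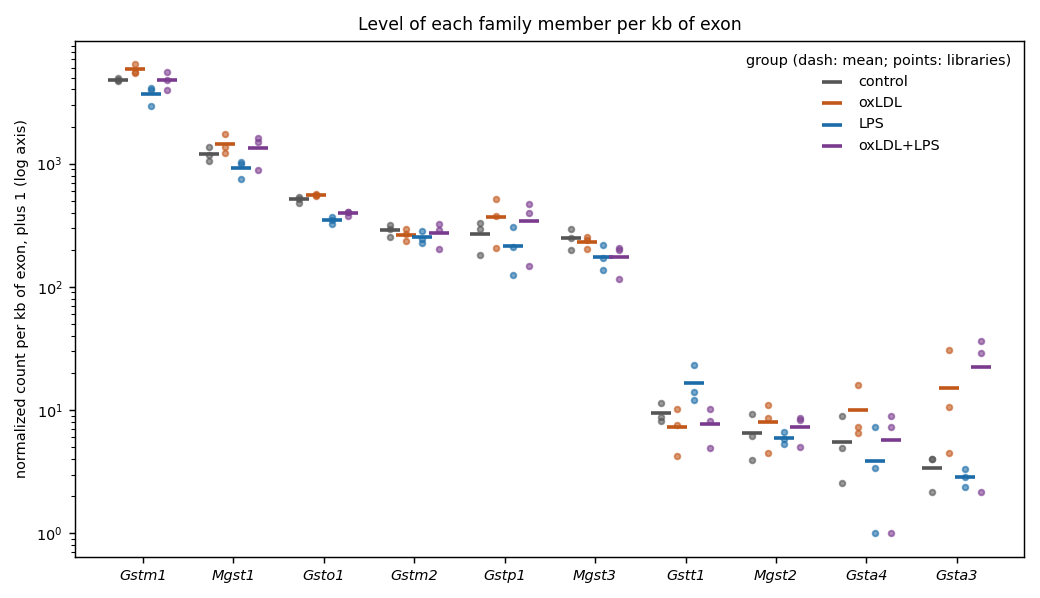
Normalized count per kb of exon, plus 1, on a log axis for each member, with a point per library, a dash for the group mean and a colour per group. Gstm1 stands highest in every group, and Gsta3 spans the widest range, from 1.15 to 35.2 per kb.

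As a share of the summed value of the 10 members, Gstm1 made up 53.2% to 66.1% and Mgst1 17.2% to 25.6% of the signal in a library, so the family total mostly follows these 2 genes. That total was 11363 to 12158 in control, 12789 to 15758 in oxLDL, 8104 to 9942 in LPS and 9058 to 13517 in oxLDL+LPS libraries. The oxLDL and LPS ranges did not overlap with the control range, lying above and below it. Gsta3, in contrast, made up at most 1.21% of the family in any library.

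**Figure D2:**
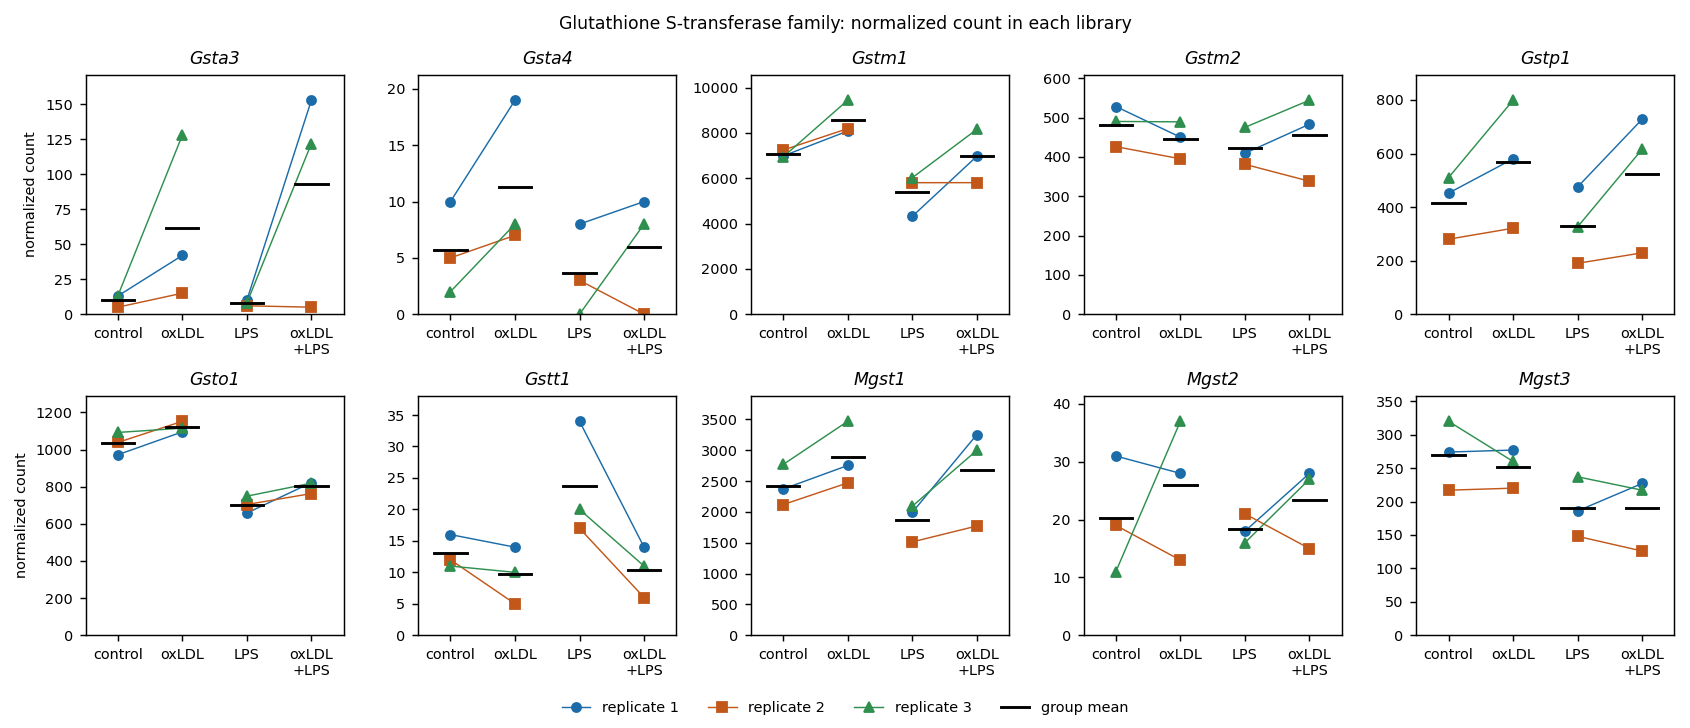
Normalized count of each member in the 12 libraries, with a marker and colour per replicate number, thin lines that join the same number with and without oxLDL, and black bars for group means; each panel has its own axis from 0. Gsta3 reaches 128 with oxLDL and 153 with oxLDL+LPS but stays at 15 and 5 in number 2, while Gsto1 separates by LPS in every number.

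Loading with oxLDL alone was accompanied by higher values of Gsta3, Gstm1, Gstp1 and Mgst1 in all 3 replicate numbers. In such bulk libraries, more cells with a transcript and more RNA of it per cell cannot be told apart. None of the 9 members tested, Gsta4 being too low for the filter, passed in the limma fit without a block, where 0% of the 12751 genes tested were called, the smallest Benjamini-Hochberg adjusted p being 0.250, and 381 genes had an unadjusted p under 0.05. In the blocked fit, 4 of 9 members were called, all higher, against a background of 4.71% of genes called in either direction, 1.8% higher and 2.92% lower.

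Gsta3, an alpha class enzyme known for conjugating the aflatoxin epoxide in mouse liver, was 13, 5 and 13 in control and 42, 15 and 128 in oxLDL libraries of numbers 1, 2 and 3. Every oxLDL library was above every control library, and number 3 was by far the highest. The filter value of 10 was reached in 2 control and 3 oxLDL libraries, so Gsta3 was tested through the oxLDL group. The mean was 5.97-fold higher (61.7 ± 59.0 against 10.3 ± 4.62, SD, n = 3 each), and the ratio within a number was 3.23, 3.00 and 9.85. On the log2(value + 1) scale, on which all differences below are given, it rose by 2.08 ± 0.33 (SE) in the blocked fit, with an adjusted p of 0.0113 in limma, against an SE of 0.74 and an adjusted p of 1 without the block. With any of the numbers left out, Gsta3 was still called in the blocked fit, its difference ranging from 1.52 to 2.41. Such a fit has so few libraries that its p-values lean on the variance shared over all genes. These calls therefore say little about how stable the result of this gene is.

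Gstm1, the most abundant member and a mu class enzyme that conjugates epoxides and lipid-derived aldehydes, was 6983, 7243 and 6941 in control and 8083, 8191 and 9444 in oxLDL libraries. These groups did not overlap. The difference was 0.28 ± 0.06 in the blocked fit (limma adjusted p = 0.0282), a 1.21-fold higher mean. Mgst1, a membrane enzyme of the endoplasmic reticulum and outer mitochondrial membrane that also reduces lipid hydroperoxides, was 2370, 2118 and 2768 in control and 2752, 2470 and 3468 in oxLDL libraries. The groups overlapped, the ratio within a number kept between 1.16 and 1.25, and the blocked difference was 0.25 ± 0.04 (limma adjusted p = 0.0150).

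Gstp1, the pi class enzyme that also binds the stress kinase JNK, was 452, 280 and 510 in control and 580, 321 and 799 in oxLDL libraries. Number 2 was the lowest library of each group, so the groups overlapped, while each number was higher with oxLDL. The blocked difference was 0.40 ± 0.08 (limma adjusted p = 0.0274). Of the 50-base stretches of Gstp1 transcripts, 33.7% also occur in Gstp2 and a Gstp pseudogene, and 18.9% of those of Gstm1 occur in Gstm3, Gstm2 and other copies, so reads of these members could be shared with their copies.

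Gsto1, the omega class enzyme that removes glutathione from proteins and reduces dehydroascorbate, was 972, 1038 and 1092 in control and 1095, 1152 and 1115 in oxLDL libraries. The groups did not overlap, but the blocked difference of 0.12 ± 0.05 did not pass (limma adjusted p = 0.277). Across genes, 3.79% had all oxLDL libraries above all control libraries and 3.91% had them all below. Of the 9 members tested, 3 were of the former kind, which were Gsta3, Gstm1 and Gsto1, and 0 of the latter. The other members gave blocked differences of -0.11 ± 0.07 for Gstm2, -0.47 ± 0.33 for Gstt1, 0.34 ± 0.37 for Mgst2 and -0.09 ± 0.09 for Mgst3, none of which passed. Mgst2, which makes leukotriene C4 in several cell types, was 31, 19 and 11 in control and 28, 13 and 37 in oxLDL libraries, so that its mean difference rests on number 3. Gsta4, which clears hydroxynonenal, was 10, 5 and 2 in control and 19, 7 and 8 in oxLDL libraries, higher in every number but at values of a few reads.

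The count of called members moved with the libraries. The blocked fit called 2 members without number 1 (Gsta3 and Mgst1), 2 without number 2 (Gsta3 and Gstp1) and 5 without number 3 (the 4 above and Gsto1). In these settings 214 of 12376, 139 of 12368 and 1285 of 12451 genes were called. The summed markers of large peritoneal macrophages, 5 genes, were 2628, 1380 and 1871 in control and 3902, 1671 and 3374 in oxLDL libraries. Most of that sum was Cd5l, at 2196, 852 and 1549 against 3509, 1232 and 3044, while of the 4 markers tested 2 had higher and 2 lower values, with a median difference of 0.13. Their part in the result was not tested. The mesothelial and fibroblast sums were 25445, 17810 and 5906 in control and 20965, 14817 and 6193 in oxLDL libraries. The latter were lower with oxLDL in numbers 1 and 2 and higher in number 3, where Gsta3 was highest.

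**Figure D3:**
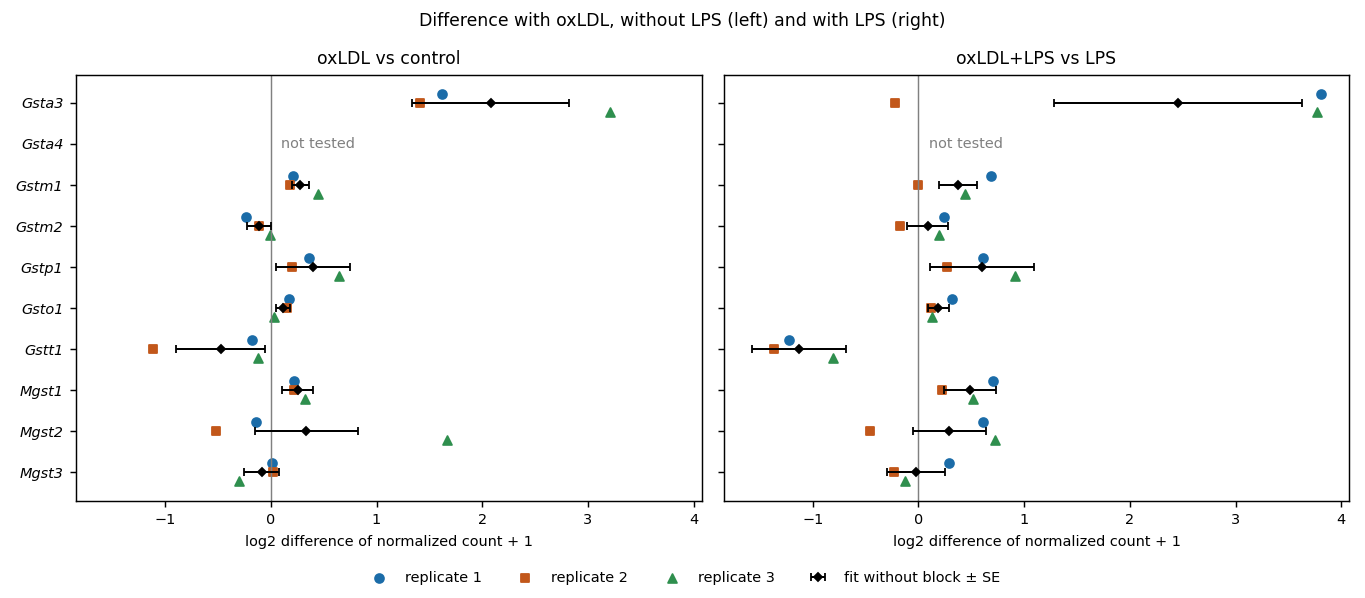
Log2 difference of normalized count + 1 with oxLDL for each member, in cells without LPS (left) and with LPS (right); coloured markers are the 3 replicate numbers and black diamonds the fit without a block ± SE. Gsta3 lies farthest to the right in both panels, and its number 2 marker falls to -0.22 in cells given LPS.

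In LPS-treated cells, oxLDL+LPS libraries were compared with LPS libraries. No member passed without the block, where 0% of 12786 genes were called by limma (smallest adjusted p 0.698, with 890 genes at an unadjusted p under 0.05). The blocked fit called 5 of 9 members, of which Gsta3, Gstm1, Gstp1 and Mgst1 were higher and Gstt1 was lower, while 4.42% of genes were called higher and 8.74% lower, 13.2% in all.

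Gsta3 was 10, 6 and 8 in LPS libraries and 153, 5 and 122 in oxLDL+LPS libraries. Numbers 1 and 3 were 15.3 and 15.25 times as high, and number 2 was not higher, so the groups overlapped. The blocked difference was 2.45 ± 0.68 (limma adjusted p = 0.0637). Gsta3 reached the filter value of 10 in 1 LPS and 2 oxLDL+LPS libraries, so it was tested only through its higher values with oxLDL. Number 2 lowered the difference. Without the oxLDL+LPS library of number 2, Gsta3 also passed in the fit without a block (difference 3.96, limma adjusted p = 0.0179), and in the original 6 libraries it did not (adjusted p = 0.732).

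Gstp1 was 475, 190 and 326 in LPS and 728, 229 and 616 in oxLDL+LPS libraries, higher in each number, with a blocked difference of 0.60 ± 0.12 (limma adjusted p = 0.02315). Mgst1 was 1991, 1513 and 2091 in LPS and 3251, 1771 and 2997 in oxLDL+LPS libraries, also higher in each number, with a blocked difference of 0.48 ± 0.09 (limma adjusted p = 0.0196). For both genes the LPS and oxLDL+LPS ranges overlapped through number 2, which was lowest. Gstm1 was 4315, 5804 and 6020 in LPS and 6966, 5805 and 8156 in oxLDL+LPS libraries. Its number 2 libraries differed by a single unit, and the blocked difference of 0.38 ± 0.12 passed narrowly (limma adjusted p = 0.0925).

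Gstt1, the theta class enzyme that acts on small halogenated molecules, moved the other way. It was 34, 17 and 20 in LPS and 14, 6 and 11 in oxLDL+LPS libraries, and every oxLDL+LPS library was below every LPS library. The blocked difference was -1.13 ± 0.34 (limma adjusted p = 0.0800), at values that rest on few reads. Gstt1 reached the filter value of 10 in 3 LPS and 2 oxLDL+LPS libraries, so it was tested through the LPS group. Across genes, 6.39% had all oxLDL+LPS libraries below all LPS libraries and 6.18% had them all above. Gsto1 was the member of the latter kind, at 658, 704 and 749 against 822, 763 and 819, and its blocked difference of 0.19 ± 0.08 did not pass (limma adjusted p = 0.1925). The blocked differences of Gstm2, Mgst2 and Mgst3 were 0.09 ± 0.10, 0.29 ± 0.33 and -0.02 ± 0.13.

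In oxLDL+LPS cells, number 2 was the lowest library for all 10 members, against 8 of 10 in oxLDL, 6 in LPS and 5 in control libraries. The share of all genes lowest in number 2 was not counted. Members read from the same library share its pool, so these counts cannot be taken as particular to the family. Left out of the comparison of oxLDL+LPS with LPS, number 2 left 4 members called in the blocked fit, Gsta3, Gstm1, Gstp1 and Mgst1, with 2945 of 12334 genes called. As above, blocked fits without a number lean on the variance shared over all genes. Without number 1 or without number 3, none of the members tested was called, with 71 of 12266 and 0 of 12452 genes called, and Gsta3 was too low there to be tested. In these cells the mesothelial and fibroblast sums were 32202, 15067 and 6338 in LPS and 18677, 16515 and 5455 in oxLDL+LPS libraries, and the large peritoneal macrophage sums were 2634, 1196 and 1653 against 4242, 1403 and 2371. Of these 5 markers, 2 had higher and 3 lower values (median difference -0.41), Cd5l being called higher and Timd4 lower in the blocked fit. The part of either set in the result was not tested.

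LPS alone went with lower values of most members. In the fit without a block, 4 of 9 members were called against control, all lower (Gstm1, Gsto1, Mgst1 and Mgst3), where 61.7% of 13023 genes were called and 30.3% were called lower. With the block, 5 members were called lower and 1 higher, where 68.7% of genes were called, 34.1% lower and 34.6% higher. Groups without overlap were found for 3 members below control and 1 above, against 31.1% and 32.1% of genes. The median difference over the 9 members was -0.38, against -0.00097 over all genes tested.

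Gsto1 had the smallest spread. It was 972, 1038 and 1092 in control and 658, 704 and 749 in LPS libraries, and the ratio within a number was 0.677, 0.678 and 0.686. No LPS library reached a control library. The difference was -0.55 ± 0.09 (limma adjusted p = 0.00175) without the block, and Gsto1 was called in every setting tried for this comparison. Gstm1 was 6983, 7243 and 6941 in control and 4315, 5804 and 6020 in LPS libraries, again without overlap, with a difference of -0.41 ± 0.14 (limma adjusted p = 0.0364).

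Mgst1 fell from 2370, 2118 and 2768 in control to 1991, 1513 and 2091 in LPS libraries, every LPS library lying below every control library, with a difference of -0.38 ± 0.15 (limma adjusted p = 0.0672). Mgst3, a membrane enzyme with glutathione-dependent peroxidase activity, was 274, 217 and 320 in control and 186, 148 and 237 in LPS libraries. Each number was lower with LPS, although the groups overlapped, and the difference was -0.51 ± 0.21 (limma adjusted p = 0.0769). Mgst1 and Mgst3 were not called when no filter on low values was used (adjusted p = 0.106 and 0.116), with no trend in the variance (0.112 and 0.102), when control library 1, control library 3 or LPS library 2 was left out, or when number 1 was left out of both groups without a block. Mgst1 was also not called in the fit of all 12 libraries or without number 3 in both groups, nor Mgst3 without LPS library 1. Gstm1 was not called without control library 2 or without number 2 in both groups (adjusted p = 0.102 for each).

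The block added Gstp1 and Gstt1. Gstp1 was 452, 280 and 510 in control and 475, 190 and 326 in LPS libraries, lower in numbers 2 and 3 and slightly higher in number 1, with a blocked difference of -0.38 ± 0.16 (limma adjusted p = 0.0730). Gstt1 was 16, 12 and 11 in control and 34, 17 and 20 in LPS libraries, and every LPS library was above every control library. Its difference of 0.77 ± 0.30 passed with the block (limma adjusted p = 0.0567) and missed without it (adjusted p = 0.103). Scaled to equal library totals, the difference of Gstt1 was 0.32 (adjusted p = 0.487), a scaling that lowers the median of all genes by 0.48. Under that scaling the called members stayed lower. The blocked fit without number 1 called 5 members lower and did not call Gstt1, with 8085 of 12092 genes called.

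Gstm2 was 528, 426 and 490 in control and 409, 381 and 475 in LPS libraries, lower in each number, but the difference of -0.19 ± 0.13 did not pass (limma adjusted p = 0.251). Gsta3, at 10, 6 and 8, and Mgst2, at 18, 21 and 16 in LPS libraries, had differences of -0.25 ± 0.47 and -0.04 ± 0.40, which did not pass either. Gsta4 was 8, 3 and 0 in LPS libraries and was too low to be tested.

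**Figure D4:**
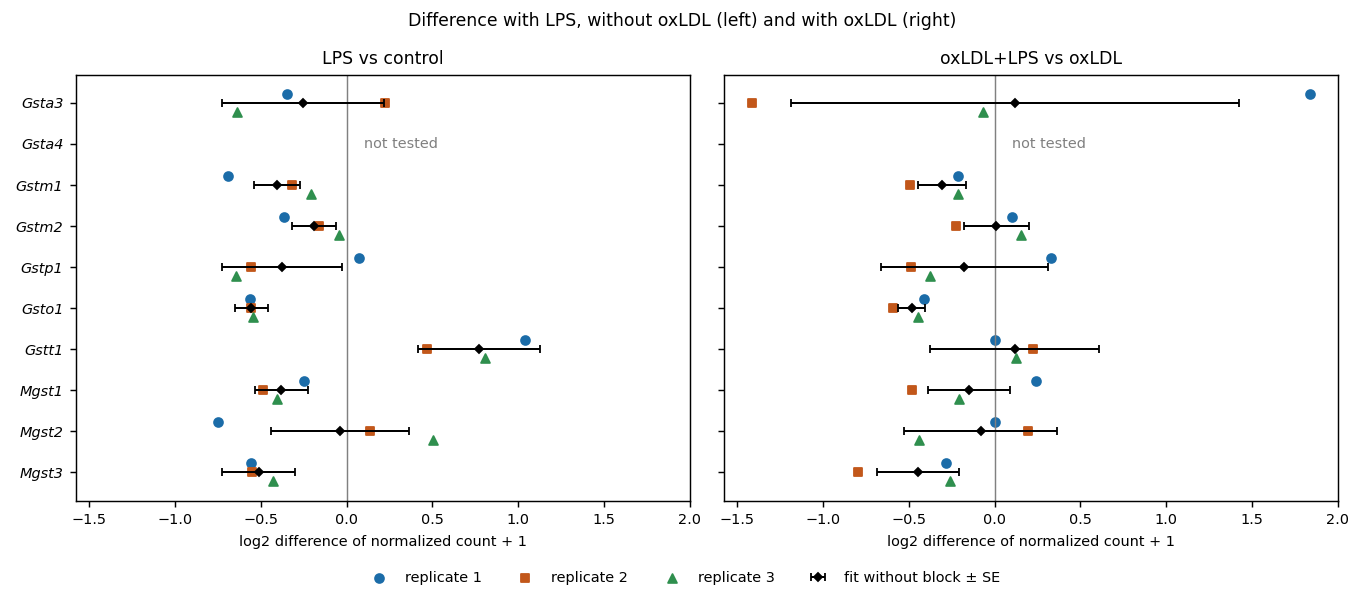
Log2 difference of normalized count + 1 with LPS for each member, in cells without oxLDL (left) and with oxLDL (right); coloured markers are the 3 replicate numbers and black diamonds the fit without a block ± SE. Gsto1 is tightly grouped at -0.55 and -0.48, and Gsta3 scatters from -1.42 to 1.84 in oxLDL-loaded cells.

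In oxLDL-loaded cells, LPS lowered Gsto1 again. Its values were 1095, 1152 and 1115 in oxLDL and 822, 763 and 819 in oxLDL+LPS libraries, without overlap, and it fell by 0.48 ± 0.08 on the log2 scale (limma adjusted p = 0.00183). It was the 1 member of 9 called without the block, where 54.5% of 12900 genes were called and 26.3% were called lower. With the block, 3 of 9 were called, all lower, against 63.4% of genes called in all, 31.4% lower and 32% higher. These were Gsto1, Gstm1 and Mgst3. Gsto1 was also the member whose groups did not overlap, where 28% of genes lay wholly below and 29.6% wholly above.

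Gstm1 was 8083, 8191 and 9444 in oxLDL and 6966, 5805 and 8156 in oxLDL+LPS libraries, a blocked difference of -0.31 ± 0.09 (limma adjusted p = 0.0236). Mgst3 was 277, 220 and 260 in oxLDL and 227, 126 and 217 in oxLDL+LPS libraries, a blocked difference of -0.45 ± 0.15 (limma adjusted p = 0.0383). Each was lower in all 3 numbers, and for each the groups overlapped. Without number 1, the blocked fit called 5 members lower, adding Gstp1 and Mgst1, with 7550 of 12113 genes called. Without number 2 it called Gsto1 alone, with 6820 of 12175 genes called.

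The remaining members had no common direction in loaded cells. Mgst1 was 2752, 2470 and 3468 in oxLDL and 3251, 1771 and 2997 in oxLDL+LPS libraries, higher in number 1 and lower in numbers 2 and 3. Gstp1 showed the same split. Gsta3 went from 42, 15 and 128 to 153, 5 and 122, with a difference of 0.12 ± 1.31 that leaves its direction unresolved. Gstm2, Gstt1 and Mgst2 had differences of 0.01 ± 0.19, 0.12 ± 0.49 and -0.08 ± 0.45. The 4 comparisons share groups in pairs, so they are not independent of each other.

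Whether oxLDL acted differently with and without LPS was tested as the interaction over all 12 libraries. No member was called without a block, with the replicate block or with a separate block for each number in each LPS state, fits in which 0%, 0% and 1.09% of the 13482 genes tested were called by limma. Without a block the interaction of Gstt1 was -0.66 ± 0.60, that of Mgst1 0.23 ± 0.31 and that of Gsta3 0.37 ± 1.54 (limma adjusted p = 1.00 for each). These standard errors leave room for an interaction of either sign. By number, the interaction of Gsta3 was 2.19, -1.64 and 0.57, so the replicates disagreed in sign. Those of Gstp1 (0.26, 0.07 and 0.27), Mgst1 (0.49, 0.0053 and 0.19) and Gstt1 (-1.04, -0.25 and -0.68) kept a single sign in all 3 numbers. The share of all genes that did so was not counted.

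Other genes of the superfamily were read beside the members. Of 23 listed genes, 22 were in the table and 14 passed the filter in the comparison of LPS with control. Without a block, limma called 3 of the 14 higher and 7 lower, where 31.4% of all genes were called higher and 30.3% lower. Among the called superfamily genes are eicosanoid enzymes of the family. Ptges, a membrane prostaglandin E synthase, went from 178, 106 and 98 in control to 5254, 5543 and 4953 in LPS libraries, a difference of 5.41 ± 0.21. Hpgds, the glutathione-dependent prostaglandin D synthase, went from 2043, 2555 and 2555 to 481, 423 and 389, a difference of -2.46 ± 0.13.

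Clic4, an intracellular chloride channel protein with a GST fold, rose from 8418, 8248 and 8346 to 58686, 63915 and 77737 with LPS. Clic1 also rose, by 0.27 ± 0.09. Among cytosolic enzymes, Gstt3 fell from 62, 64 and 62 to 18, 14 and 20, Gstm4 by 0.86 ± 0.17 on the log2 scale, Gstt2 by 0.79 ± 0.24 and Gstz1 by 0.48 ± 0.14. The theta class thus split, with Gstt2 and Gstt3 lower and Gstt1 at higher values with LPS. Alox5ap and Ltc4s, both of leukotriene synthesis, fell by 1.02 ± 0.22 and 1.06 ± 0.48.

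In loaded cells, LPS gave 3 higher and 5 lower calls without the block, where 28.2% of all genes were called higher and 26.3% lower. The superfamily calls were all among those 10 genes, with Ptges at 5.43 ± 0.20 and Hpgds at -2.54 ± 0.13. Siglecf, the eosinophil marker that passed the filter, moved with Hpgds, from 315, 350 and 383 in control to 99, 115 and 124 in LPS libraries. Epx and Prg2, also on the eosinophil list, were at 0 or 1 in all 12 libraries. The part of eosinophils in the change of Hpgds was not tested. The other 3 comparisons held 1 call or none. With oxLDL, Alox5ap was the only gene of this list called higher in the blocked fit. Its difference was 0.32 without LPS, with 14 tested (limma adjusted p = 0.04825), and 0.71 with LPS, with 13 tested (limma adjusted p = 0.0144). Over all genes, 1.8% were called higher without LPS and 4.42% with LPS.

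The supply of glutathione and the export of its conjugates were read from 26 genes, of which 23 passed the filter. With oxLDL alone, the blocked fit called 7 higher and 1 lower, where 1.8% of all genes were called higher and 2.92% lower. Gclm, the modifier subunit of the enzyme that limits glutathione synthesis, was 1750, 670 and 1624 in control and 2639, 1183 and 7556 in oxLDL libraries. It rose by 1.21 in that fit (limma adjusted p = 0.0175), as did Gsr, the glutathione reductase, by 0.49, G6pdx, which supplies NADPH, by 0.36, and Esd, which hydrolyses S-formylglutathione, by 0.43. Dpep2, a dipeptidase of leukotriene and conjugate processing, fell by 0.19.

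With oxLDL in LPS-treated cells, the blocked fit called 10 of the 23 higher and 1 lower, against 4.42% and 8.74% of all genes. Gclm was 2342, 1220 and 1693 in LPS and 10850, 1859 and 11179 in oxLDL+LPS libraries, with number 2 the lowest oxLDL+LPS library, as for Gsta3. Abcc1, an exporter of glutathione conjugates, rose by 1.07, Gclc, the catalytic subunit beside Gclm, by 1.11 and G6pdx by 0.58, and Dpep2 fell by 0.31. None of these genes passed without the block, where no gene was called.

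With LPS, genes of this list were called in both directions. Without a block, 10 of 23 were called higher and 5 lower against control, where 31.4% of all genes were called higher and 30.3% lower. Slc7a11, the cystine importer, went from 312, 252 and 322 to 6633, 11399 and 12245, and Ggct, Abcc1 and Gsr rose by 2.42, 1.97 and 1.31. Gpx1, the main cytosolic glutathione peroxidase, fell by 0.67, and Hagh and Glo1 of the glyoxalase pathway by 0.80 and 0.66. In loaded cells the counts were 11 higher and 5 lower, where 28.2% of all genes were called higher and 26.3% lower. Slc7a11 was at 4.85, Slc3a2, its partner chain, at 1.51, Abcc1 at 2.30 and Gsr at 1.27. Gpx1, Hagh and Oplah were lower there, by 0.63, 0.60 and 0.90.

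A list of 24 NRF2 regulators and targets, none of them a member, was compared by number. With oxLDL alone, the blocked fit called 11 of 24 higher and 0 lower, against 1.8% and 2.92% of all genes. The median was 0.44 against -0.0051 over all genes, and 0 of the 24 were called without the block. In LPS-treated cells the blocked fit called 15 higher and 1 lower, against 4.42% and 8.74% of all genes, and the median was 0.89. By number the medians were 0.30, 0.24 and 0.68 without LPS and 0.95, 0.41 and 1.21 with LPS, so that number 2 was the lowest of each set, as it was for Gsta3. For the 9 tested members the corresponding medians were 0.17, 0.15 and 0.33 without LPS and 0.61, -0.17 and 0.44 with LPS.

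**Figure D5:**
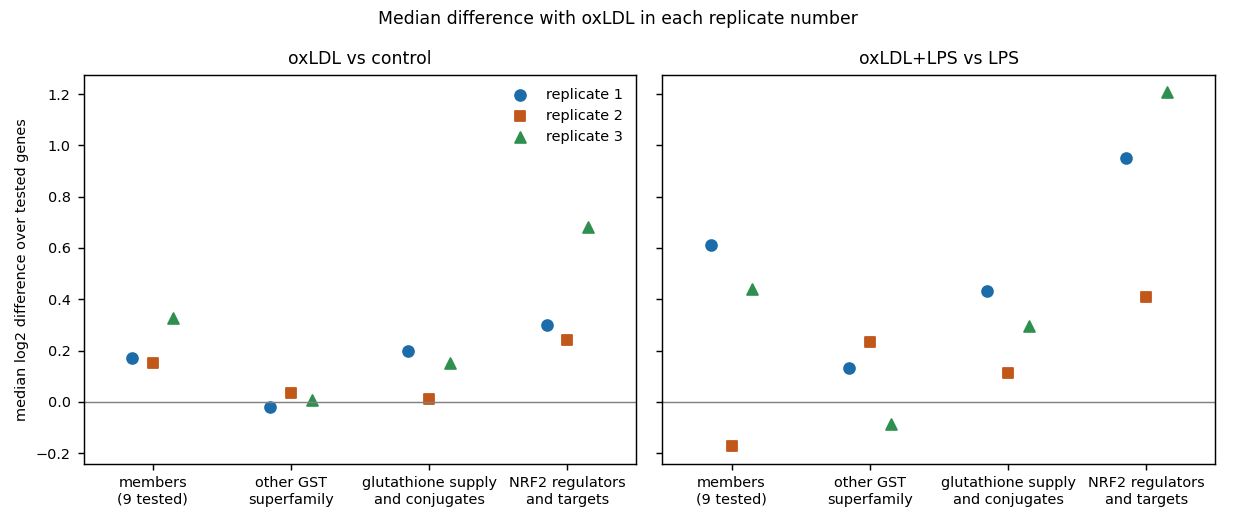
Median log2 difference with oxLDL over the tested genes of 4 lists, by replicate number, in cells without LPS (left) and with LPS (right). The NRF2 list reaches 1.21 in number 3 with LPS, and number 2 gives the lowest point for that list and for the members in both panels.

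Among the NRF2 targets called in the blocked fit, Cat, the catalase that removes hydrogen peroxide, was 3964, 2437 and 4788 in control, 5922, 3468 and 12486 in oxLDL, 2493, 1183 and 2205 in LPS and 8369, 1862 and 9279 in oxLDL+LPS libraries. Blvrb, Taldo1 and Prdx1, of haem breakdown, the pentose phosphate pathway and peroxide removal, rose with oxLDL by 0.72, 0.58 and 1.17 without LPS and by 0.93, 1.06 and 1.51 with LPS. Maff, a small MAF partner, was the gene lower with oxLDL in LPS-treated cells, by 0.54. With LPS alone, Keap1, Mafk, Prdx1 and Maff rose by 1.67, 1.77, 1.43 and 3.39. Taldo1, Cat, Bach1 and Osgin1 fell by 0.82, 0.94, 0.94 and 0.98. Without a block, 10 of 24 were called higher and 4 lower, against 31.4% and 30.3% of all genes. In loaded cells the counts were 10 and 1, against 28.2% and 26.3% of all genes. Keap1, Mafk, Sqstm1 and Txnrd1 were higher there by 1.49, 1.52, 2.27 and 1.67 and Bach1 lower by 0.63. The block also called Taldo1 lower in loaded cells (-0.33, limma adjusted p = 0.0842).

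The genes whose values were most like a member's were ranked by Pearson correlation of log2(value + 1) over the 12 libraries among 13482 genes, as a description. These libraries share pools and treatments. Gsta3 was most like Ptgr1 (r = 0.984), a prostaglandin reductase that also clears reactive alkenals, then Cyb5a and Akr1b8. Mgst1 was most like Cat (r = 0.978), Sod1 and Taldo1. Gstp1 was most like Hprt (r = 0.9855), 9330136K24Rik and Tkt, and Gsto1 was most like Blvra (r = 0.989), 4933421O10Rik and Abhd12. Gstm1 was most like Lrpprc (r = 0.955), AW209491 and Fam124a, and Mgst3 was most like Dnajc12 (r = 0.960), Gm1673 and Clec4a2. Gstt1 had the loosest likeness among the called members, to 5830432E09Rik (r = 0.846), Pmvk and Magi3.

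On GRCm38 in the GENCODE vM21 annotation the members lie apart from each other except for Gstm1 (chromosome 3, 108012255 to 108017973) and Gstm2 (chromosome 3, 107981702 to 107986453), both on the minus strand. Mgst2 (51660360 to 51682677, plus strand) lies elsewhere on chromosome 3. Gstp1 (4035407 to 4037985, minus strand) and Gsto1 (47854970 to 47864790, plus strand) are on chromosome 19. Gsta3 (21240589 to 21265661, plus strand) and Mgst3 (167371966 to 167393841, minus strand) are on chromosome 1, Mgst1 (138140316 to 138156755, plus strand) on chromosome 6, Gsta4 (78182774 to 78209349, plus strand) on chromosome 9 and Gstt1 (75783813 to 75798584, minus strand) on chromosome 10. The neighbours Gstm1 and Gstm2 differed with oxLDL alone, 0.28 ± 0.06 against -0.11 ± 0.07 in the blocked fit, a difference between genes that was not itself tested. No exon of a member overlaps an exon of another gene in this annotation.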

How the data were processed

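Poly(A) RNA of 12 PMφ cultures was sequenced. The authors trimmed reads with Trimmomatic 0.32, aligned them to GRCm38 with STAR 2.5.1b and counted exonic reads per GENCODE vM4 gene with featureCounts. By their spacing, the deposited signal values are such counts after scaling with a single factor for each library and rounding. The sources used here do not describe that step. Reads were therefore not recovered and count models were not run. Whether counting used the strand is not given in the sources used here.

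Comparisons used limma 3.58.1 in R 4.3.3 (lmFit, eBayes with a trend) on log2(value + 1), for genes whose value reached 10 in 3 or more of the 6 libraries of a comparison (12 for the interaction). P-values were adjusted by Benjamini-Hochberg over all genes tested and called under 0.1. The fit was checked on simulated data. Whether replicates were separate experiments is not stated in the labels, so p-values measure the spread between these libraries. Replicate numbers were taken to pair libraries: over 13482 genes, deviations of same-numbered libraries correlated by 0.602 to 0.657 (oxLDL vs control), 0.340 to 0.538 (LPS vs control), 0.266 to 0.566 (oxLDL+LPS vs oxLDL) and 0.566 to 0.599 (oxLDL+LPS vs LPS). The methods describe pools divided among the groups.

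Members and gene lists were chosen with earlier results of these data known. Named genes are all members, superfamily genes called in any fit, up to 4 genes per direction of the other lists by the smallest p in the blocked fit, and the 3 genes most like a called member. Of the genes this rule takes, 1 is not reported here. Levels per kb used GENCODE vM21 exon lengths. Upstream sequences are from RefSeq, GRCm38.p6. Other genes shown are cell type markers and sex-linked genes. Alternatives were other filters, pseudocounts, scalings and variance models, all libraries in 1 fit, the block, and leaving out libraries or numbers. Blocked fits without a number hold few libraries, so their calls lean on the variance shared over all genes.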

Additional observations from a re-analysis of the deposited data

How the results depend on the processing

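Over 46 differences of members and 989 alternative values, 846 kept direction and side of the threshold, 17 kept direction but lost the call, 48 gained one and 78 changed direction, none of the 78 being called under either setting. The replicate block changed the number of members called from 0 to 4 for oxLDL vs control, 4 to 6 for LPS vs control, 1 to 3 for oxLDL+LPS vs oxLDL and 0 to 5 for oxLDL+LPS vs LPS, and the number of genes called from 0 to 601 and from 0 to 1682 in the oxLDL comparisons. The block also moved the genes called from 8039 to 8948 of 13023 for LPS vs control. For oxLDL+LPS vs oxLDL they went from 7030 to 8185 of 12900. With 6 blocks, chosen after seeing the data, the interaction went from 0 to 147 genes and 0 members. Without a filter, LPS vs control called 2 members, with 8289 of 23339 genes called. For oxLDL+LPS vs oxLDL, equal totals gave 4 members, with 8691 of 12882 genes called. All 12 libraries in 1 fit gave 2, with 7558 of 13482 genes called. Leaving out libraries or numbers, with or without the block, gave 0 to 5 members for oxLDL vs control, 2 to 5 for LPS vs control, 1 to 5 for oxLDL+LPS vs oxLDL and 0 to 4 for oxLDL+LPS vs LPS. The genes called in these settings were 0 to 1285, 5827 to 8085, 4940 to 7550 and 0 to 2945, in the same order. The cause was not tested. Equal totals lowered the median of all genes by 0.48 (LPS vs control) and 0.41 (oxLDL+LPS vs oxLDL), and the share of calls that were higher went from 50.9% to 23.1% and from 51.7% to 23.4%.

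Directions changed under equal totals for Gsta3 (-0.25), Gstm2 (-0.38) and Gstt1 (-0.23) in oxLDL+LPS vs oxLDL, Mgst3 (0.066) in oxLDL+LPS vs LPS and Mgst2 (0.039) in the interaction. With libraries or numbers left out they changed in oxLDL vs control for Mgst2 (-0.33 to 0.76) and Mgst3 (-0.24 to 0.043; blocked, to 0.018), in LPS vs control for Mgst2 (-0.40 to 0.32), and in oxLDL+LPS vs LPS for Gstm2 (-0.055 to 0.29) and Mgst3 (-0.19 to 0.25; blocked, 0.028 to 0.080 where changed). In oxLDL+LPS vs oxLDL they changed for Gsta3 (-0.74 to 1.63), Gstm2 (-0.13 to 0.21; blocked, -0.035 and -0.061 where changed), Gstp1 (-0.54 to 0.34), Gstt1 (-0.25 to 0.43), Mgst1 (-0.35 to 0.12; blocked, to 0.015) and Mgst2 (-0.50 to 0.22; blocked, to 0.096). In the interaction they changed for Gsta3 (-0.53 to 1.88), Gsta4 (-1.49 to 0.64; blocked, to 0.51), Gstm1 (-0.092 to 0.24), Gstp1 (-0.16 to 0.71), Mgst2 (-0.46 to 0.40) and Mgst3 (-0.10 to 0.33; blocked, from -0.039). With 3 libraries per group, an exact permutation test of a single member cannot give a p below 0.1. Depth limits Gsta3, Gsta4, Gstt1 and Mgst2, whose values near 10 are of the order of as many reads.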
